A study of Homo sapiens with 12 samples.

Results

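KMS11 is a human multiple myeloma line with the t(4;14) translocation, which places the MMSET gene (now named NSD2) under immunoglobulin heavy chain control on 1 allele and so overexpresses it. Gene expression was compared between parental KMS11 cells (WT), which keep the overexpressed and the wild-type MMSET allele, and NTKO cells, in which the wild-type allele was inactivated by homologous recombination and the overexpressed allele was kept. These were 6 of the 12 arrays of the series, chosen by the genotype in their labels as 3 WT and 3 NTKO arrays. The other 6 arrays held 3 replicates each of TKO1 and TKO2, a pair of clones in which the overexpressed allele was inactivated. Their levels are given for context, and these arrays also entered the fit that estimated the spread of each gene. Both knockout lines descend from KMS11 and all 4 lines were grown in the same medium, with total RNA hybridised to Illumina whole-genome bead arrays. No source used here says how many clones the NTKO arrays came from. Nor do the labels say that replicates were separate cultures, so the p-values reflect spread between arrays, which may be technical. The comparison asks what else distinguishes NTKO cells, which serve as the MMSET-high line, from the cells they were made from.

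MMSET dimethylates histone H3 at lysine 36. Plasma cells, from which myeloma arises, secrete immunoglobulin and normally switch off MHC class II, the cell surface molecules that present peptides to helper T cells and depend on the coactivator CIITA. When amino acids run short or unfolded protein builds up, cells raise translation of the transcription factor ATF4, which with CHOP (DDIT3) and C/EBP partners turns on genes for amino acid synthesis, uptake and tRNA charging. Ribosome production is driven in part by the transcription factor MYC, which binds E-box elements.

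The 3 NTKO arrays fell into unequal sets. A total of 79 genes differed from WT by at least 2-fold on all 3 NTKO arrays, among them immunoglobulin J chain (JCHAIN) and MHC class II genes, which were lower, and ANXA1, HOPX and CD38, which were higher. A larger set of 558 genes differed on NTKO replicates 1 and 3 and lay near WT, or on its other side, on replicate 2. Genes of the ATF4 response made up part of the higher members of that set, and genes for ribosome production part of the lower ones.

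Promoter sequence is shown for list members that belong to these moved sets and whose RefSeq promoter, taken as 250 bases before the annotated start to 50 after it, held an element known from the pathway. The genes shown were thus chosen on their values, and the directions given with the sequences follow from that choice. In the following stretches (RefSeq, GRCh38.p14, 5′ to 3′ on the strand of the gene) capitals mark TGATGNAA, the element bound by ATF4 with C/EBP partners, on either strand. The 9 genes shown come from the set higher on NTKO replicates 1 and 3 only, and 6 listed genes with the element that lie in no moved set are not shown (FGF21, MTHFD1L, SLC38A1, IARS1, NARS1 and TARS1). Those shown encode the stress factor ATF3, the glutathione-degrading enzyme CHAC1, asparagine synthetase, aspartate transaminase, the amino acid transport proteins SLC3A2 and SLC7A1, and the alanyl-, cysteinyl- and methionyl-tRNA synthetases.
ATF3 (chr1:212565191-212565248, plus strand): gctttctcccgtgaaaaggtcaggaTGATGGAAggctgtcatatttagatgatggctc
CHAC1 (chr15:40953237-40953294, plus strand): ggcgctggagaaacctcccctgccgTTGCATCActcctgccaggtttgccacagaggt
ASNS (chr7:97872444-97872501, minus strand): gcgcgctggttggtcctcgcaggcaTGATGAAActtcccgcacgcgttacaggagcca
GOT1 (chr10:99430790-99430847, minus strand): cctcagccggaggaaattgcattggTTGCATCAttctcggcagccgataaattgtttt
SLC3A2 (chr11:62881726-62881748, plus strand): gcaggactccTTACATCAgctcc
SLC7A1 (chr13:29595664-29595691, minus strand): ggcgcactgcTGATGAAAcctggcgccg
AARS1 (chr16:70289661-70289718, minus strand): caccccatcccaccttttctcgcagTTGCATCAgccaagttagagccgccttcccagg
CARS1 (chr11:3057408-3057435, minus strand): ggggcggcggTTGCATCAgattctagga
MARS1 (chr12:57488054-57488081, plus strand): ccggttccggTTGCATCAgcgagggatt

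For the ribosome production genes NOP2, RRP9 and MRTO4, taken from the set lower on NTKO replicates 1 and 3 only, capitals mark CACGTG, the E-box bound by MYC and MAX. The other 6 listed genes with the element (FBL, PES1, UTP4, UTP20, RCL1 and BYSL) lie in no moved set.
NOP2 (chr12:6568242-6568266, minus strand): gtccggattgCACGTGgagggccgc
RRP9 (chr3:51941894-51941919, minus strand): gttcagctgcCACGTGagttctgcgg
MRTO4 (chr1:19251809-19251834, plus strand): tcttccgccgCACGTGgattcagcgc

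For the MHC class II chaperone genes HLA-DMA and HLA-DMB, taken from the set lower on all 3 NTKO arrays, capitals mark CCAAT or its reverse complement, the letters read by the factor NF-Y, which binds class II promoters. HLA-DQB1 and CD74 also held these letters and lie in no moved set. The promoters of HLA-DRA, CIITA and INHBE were not analysed here.
HLA-DMA (chr6:32953117-32953201, minus strand): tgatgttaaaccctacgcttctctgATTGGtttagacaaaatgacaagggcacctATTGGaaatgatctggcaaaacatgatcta
HLA-DMB (chr6:32941029-32941075, minus strand): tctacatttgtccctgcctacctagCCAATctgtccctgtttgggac

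Matches to TGATGNAA were present in 1.84% of the promoters of tested genes (159 of 8649) and in 3.67% of all promoters in the table (1003 of 27305). Among genes higher on replicates 1 and 3 only the share was 6% (18 of 300), and among genes lower there it was 0.633% (1 of 158). The cytosolic tRNA synthetase promoters held it in 6 of 17 cases and those of the serine and asparagine enzymes in 3 of 12. None of the 17 promoters of genes higher on all 3 arrays, and none of the 42 of genes lower on all 3, held these letters in this window. CACGTG occurred in 10.6% of tested promoters (7.43% of the table), in 19.6% of genes lower on replicates 1 and 3 only (31 of 158) and in 9 of 26 ribosome production genes. CCAAT occurred in 37.9% of tested promoters (35.7% of the table) and in 4 of 5 class II promoters. A match is a description of the letters and not of a bound site.

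NSD2 itself gave log2 intensities of 6.56, 6.18 and 6.35 on the WT arrays and 6.09, 6.29 and 6.43 on the NTKO arrays. The groups overlapped, with a difference of −0.10 (SE 0.19, limma adjusted p = 0.792), and the clone means were 5.79 in TKO1 and 5.56 in TKO2. No source used here places the probe relative to what was disrupted, and its level is no check of the knockout. FGFR3, the receptor tyrosine kinase gene that the translocation also deregulates, stood at 13.36, 13.32 and 13.53 in WT and 13.25, 13.18 and 13.21 in NTKO. Its difference of −0.19 (SE 0.12) did not pass the test (adjusted p = 0.327), and the TKO clone means of 13.42 and 13.37 lay beside it.

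Of 10485 genes tested, 812 differed between NTKO and WT in the limma fit (7.74%), 347 higher (3.31%) and 465 lower (4.43%) in NTKO. Of these, 125 higher and 149 lower genes differed by more than 2-fold. The fit took 1 spread per gene over all 12 arrays, those of TKO included. Fitted on the 6 WT and NTKO arrays alone, 195 genes were called. Array correlations over all tested genes showed how NTKO replicate 2 stood apart from its group. NTKO replicates 1 and 3 correlated at 0.994, whereas replicate 2 correlated with them at 0.944 and 0.948 and with the WT arrays at 0.975 to 0.979. Replicate 2 also had the lowest 5th percentile of deposited intensity of all 12 arrays, −14.4 against −5.9 and −6.6 on replicates 1 and 3, and detected 9271 of the tested genes against 9947 and 9984. Without NTKO replicate 2, 3712 genes were called, 1849 higher and 1863 lower, and these held all 812. Those 1849 and 1863 of 10485 genes are the background for every list count given below without that array. Without NTKO replicate 1 or 3 the count was 319 or 278, and without WT replicate 1, 2 or 3 it was 381, 305 or 293. The part of the lower detection on replicate 2 in these results was not tested.

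Cell identity was checked with marker lists. Of 9 plasma cell markers 8 were tested, and all 8 were detected on all 6 arrays. PRDM1, the regulator of the plasma cell programme, gave 11.44, 11.12 and 11.16 in WT and 11.26, 10.91 and 11.03 in NTKO, and XBP1, the secretory regulator, gave 12.38, 12.54 and 12.59 against 12.55, 12.24 and 12.66. The summed log2 level of the 8 genes was 81.3 to 83.1 in WT and 77.7 to 79.9 in NTKO. That sum includes JCHAIN, which differed by −4.68, and CD38, which differed by 1.84, so it does not describe the 8 genes evenly. None of 14 T and NK cell markers passed the detection filter. Of 14 myeloid markers 3 were tested (summed level 16.7 to 17.5 in WT, 16.6 to 18.4 in NTKO), of 14 stromal and epithelial markers 5 (33.0 to 33.2 against 31.4 to 34.3), and of 14 erythroid and megakaryocyte markers 1. Of the 5 stromal and epithelial markers 1 was called higher and 2 lower, and the erythroid marker, HBB, was called lower.

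To separate the arrays, each NTKO array was set against the mean of the 3 WT arrays. A gene counted as moved on an array when it lay at least 1 log2 unit from the WT mean and outside the WT range, and as quiet when it lay within 0.5 or on the other side. All 3 NTKO arrays moved together for 22 genes upward (0.21% of those tested) and 57 downward (0.544%). Replicates 1 and 3 moved while replicate 2 was quiet for 362 genes upward (3.45%) and 196 downward (1.87%). Replicate 2 followed part of the way for 50 and 44 further genes. By contrast, replicates 1 and 2 moved without replicate 3 for 2 genes, and replicates 2 and 3 without replicate 1 for 0 genes. These sets were chosen on the values, so the counts are descriptions without a test. The weakest genes inside the rule for all 3 arrays were CCL3L3, with a smallest shift of 1.01, and HMX2 with 1.00, and the nearest outside it were UNC13B with 0.97 and BTBD3 with 0.995. For replicates 1 and 3 only, ABCA1 and LIME1 lay just inside at 1.00 and TMEM167B and L3MBTL2 just outside, also at 1.00 when rounded.

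**Figure D1:**
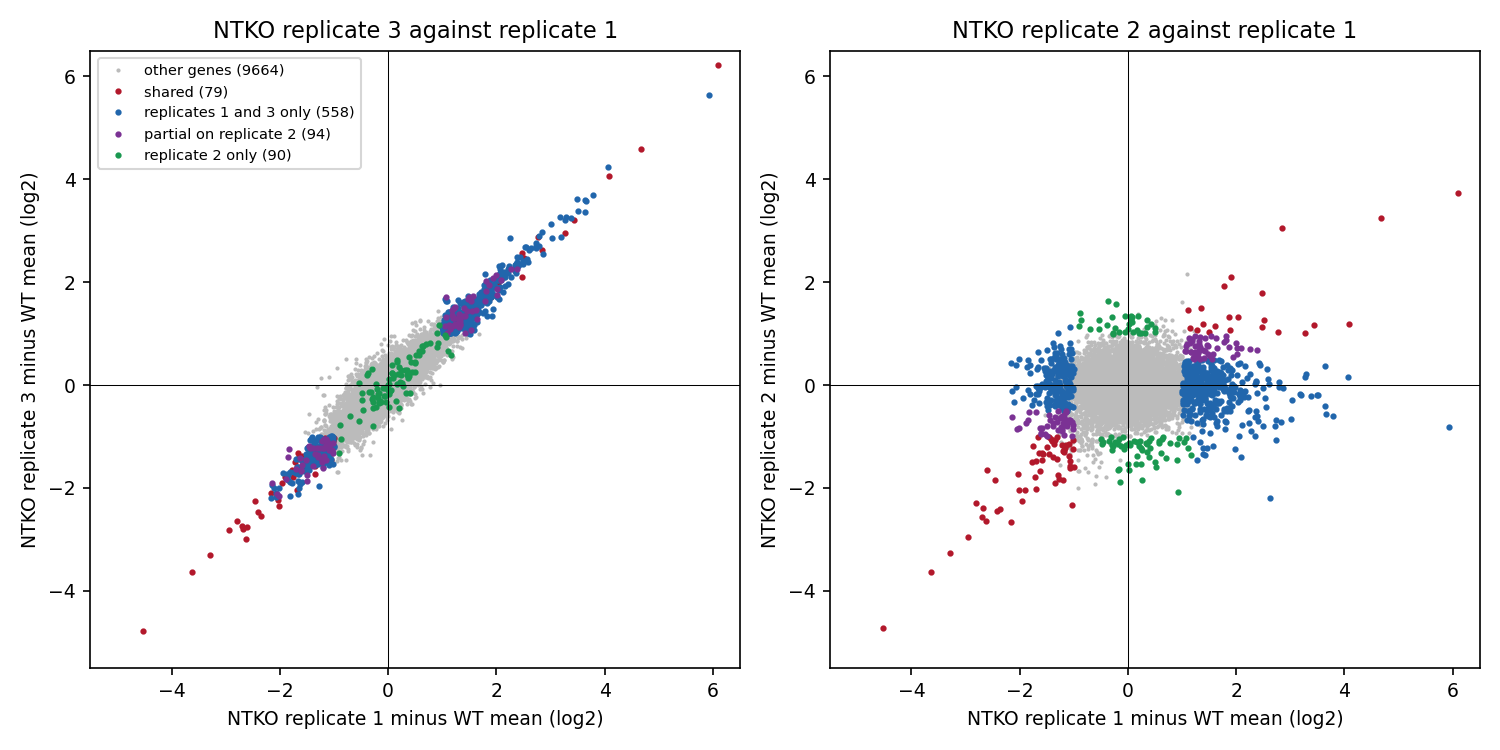
Log2 difference from the WT mean of each tested gene on NTKO replicate 3 (left) and replicate 2 (right), plotted against NTKO replicate 1. Colours mark the sets of genes described in the text. Replicates 1 and 3 lie along the diagonal (the 362 higher genes have medians of 1.46 and 1.40), while on replicate 2 these genes lie near 0 (median −0.10) and the 57 genes lower on all 3 arrays stay low (median −1.50).

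The 22 genes higher on all 3 arrays had median differences of 1.97, 1.22 and 1.92 on replicates 1, 2 and 3, so that replicate 2 was also the smallest here. ANXA1, which encodes the phospholipid-binding protein annexin A1, lay at 5.16, 4.99 and 5.16 in WT and at 11.19, 8.83 and 11.32 in NTKO. The groups were far apart, with replicate 2 lowest of the 3 NTKO arrays, and the difference was 5.35 (SE 0.47, adjusted p = 1.49e-05). HOPX, a homeodomain protein that lacks DNA binding of its own, gave 5.32, 4.99 and 4.82 in WT against 9.72, 8.29 and 9.63 in NTKO (difference 4.17, SE 0.29, adjusted p = 4.77e-07). Only 1 of the 3 WT arrays detected HOPX, and a second probe of it that passed the filter differed by 0.94 (adjusted p = 0.0313). That probe lay only 0.29 above WT on replicate 2.

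KRT80, a type II keratin, was detected on only 1 of the 3 WT arrays. It was even across the NTKO arrays, at 4.69, 4.64 and 5.02 in WT and 7.63, 7.83 and 7.40 in NTKO (difference 2.83, adjusted p = 1.93e-07). RELN, the secreted glycoprotein reelin, behaved likewise, with 6.03, 5.86 and 5.90 in WT and 7.84, 8.02 and 7.65 in NTKO (1.91, adjusted p = 6.75e-06). In both genes replicate 2 held the highest of the 3 NTKO values. RAB31, a small GTPase of endosomal traffic, rose from 7.42, 7.35 and 7.50 to 9.90, 9.22 and 9.98 (2.27, adjusted p = 1.58e-05), while the TKO clone means were 4.88 and 5.34, below WT.

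Chemokines of the CCL3 family were higher with a weak replicate 2. CCL3 gave 5.0, 5.16 and 5.02 in WT and 8.5, 6.22 and 8.27 in NTKO (difference 2.6, adjusted p = 0.00301). CCL3L3 differed by 2.41 (adjusted p = 0.0126), but it is a near-identical copy of CCL3 and the probes may share signal. A second CCL3L3 probe moved on replicates 1 and 3 only (2.51, 0.42 and 2.28 on the NTKO arrays). SNTB1, a syntrophin of the dystrophin complex, differed by 3.11 (adjusted p = 0.00619), and EIF4E3, a cap-binding protein, by 2.23 (adjusted p = 0.00182). The other genes of the set were SH3BGRL2, SPINK2, LINC00997, COBLL1, RUBCNL, FBXL16, PRPH, SLPI, BCYRN1, MC1R, BAMBI, HEY2 and CD38. All 22 passed the test, which the rule for the set makes likely, and 16 of them were detected on all 6 arrays.

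In the TKO clones, which were compared with the same WT arrays, the 22 genes had medians from −0.65 to −0.42 relative to WT. The TKO1 mean lay more than 1 log2 unit from WT on the other side from NTKO for 6 genes and the TKO2 mean for 7, against 1 and 3 genes on the NTKO side. All 6 TKO arrays lay above every WT array for 2 of the 22. ANXA1 means were 4.61 in TKO1 and 6.24 in TKO2, and RELN means were 4.66 and 4.63.

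**Figure D2:**
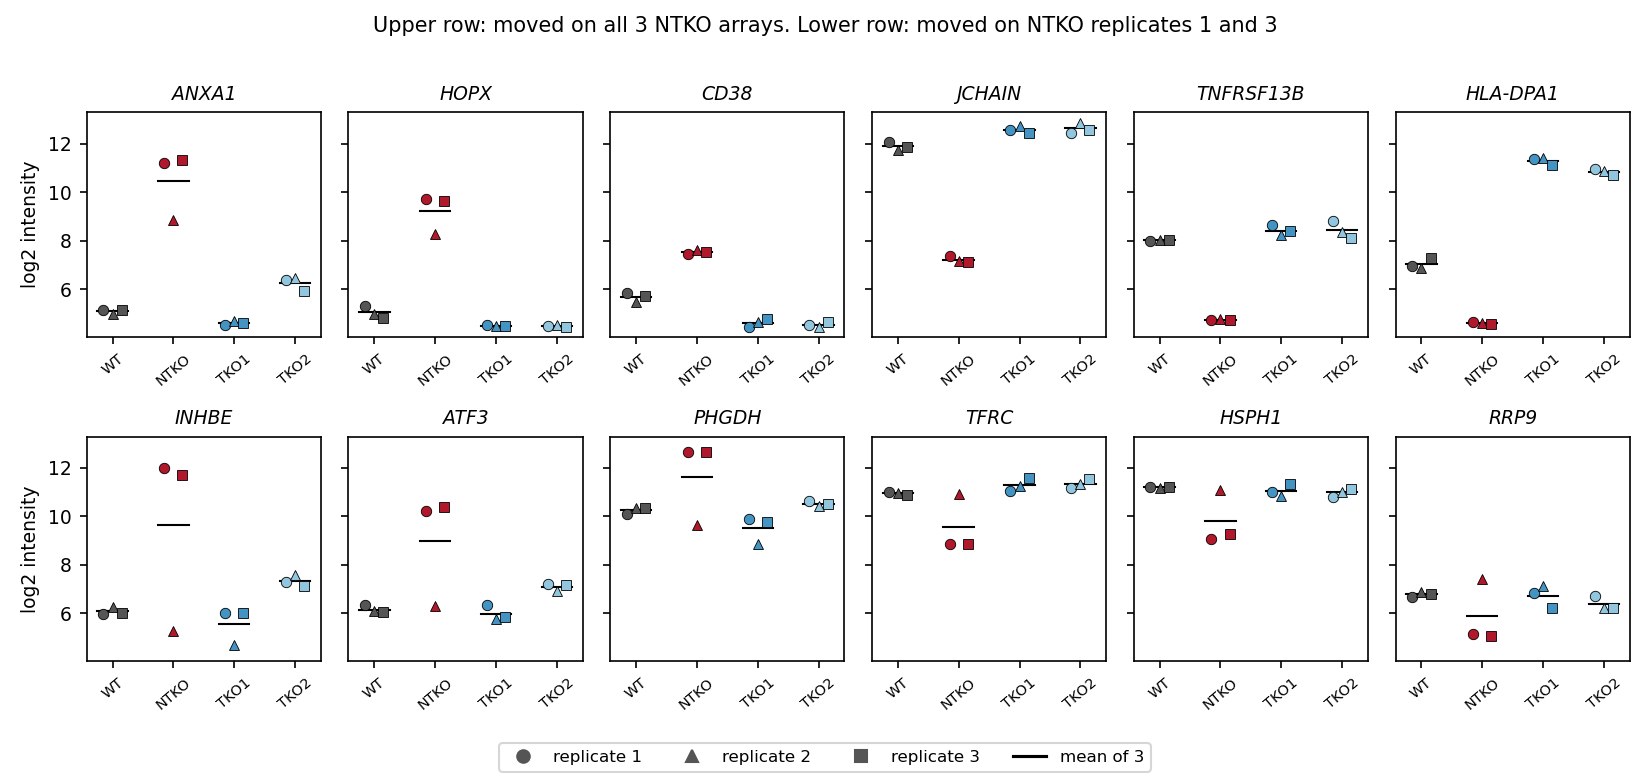
Log2 intensity of 12 genes in the 4 lines, with a symbol for each replicate (circle, triangle and square for 1, 2 and 3) and a bar at the mean of 3 arrays. In the upper row (ANXA1, HOPX, CD38, JCHAIN, TNFRSF13B, HLA-DPA1) all 3 NTKO arrays lie on the same side of WT, and in the lower row (INHBE, ATF3, PHGDH, TFRC, HSPH1, RRP9) NTKO replicate 2 lies apart from replicates 1 and 3 (5.26 against 12 and 11.71 for INHBE).

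The 57 genes lower on all 3 NTKO arrays showed no such gradient, with medians of −1.49, −1.50 and −1.50. Of these, 34 were detected on all 6 arrays and 19 were undetected on replicate 2. An undetected value gives only a lower bound of the fall, which limits how far the medians compare the arrays. JCHAIN, the joining chain of polymeric immunoglobulin, fell from 12.08, 11.75 and 11.87 to 7.37, 7.17 and 7.11. That is a 25.7-fold decrease (difference −4.68, SE 0.15, adjusted p = 4.37e-11), and the lowest WT array lay more than 4 log2 units above the highest NTKO array. The TKO clones kept JCHAIN at means of 12.58 and 12.64. In bulk RNA, fewer cells that express a gene and less RNA per cell cannot be told apart, here and for the genes that follow.

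Several surface proteins lay below detection in NTKO. DLL3, a Notch ligand, lay at 8.0, 8.33 and 8.01 in WT and was not detected on any NTKO array, which put it at least 8.53-fold lower (adjusted p = 6.16e-08). TNFRSF13B, the BAFF and APRIL receptor TACI, lay at 7.98, 8.05 and 8.03 in WT and was likewise undetected in NTKO, at least 7.97-fold lower (adjusted p = 6.16e-08). These bounds set the WT mean against the lowest signal detected on each NTKO array. SYNDIG1, a transmembrane protein of synapses, was at least 5.86-fold lower (adjusted p = 1.28e-06). In total 11 of the 57 genes were undetected on all 3 NTKO arrays.

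WIPF1, a partner of the actin regulator WASP, fell from 9.08, 8.87 and 8.76 to 6.21, 6.34 and 6.16 (−2.67, adjusted p = 4.69e-07). Of its other probes 1 moved in the same way on all 3 arrays (−2.13) and 1 did not pass the test (−0.37, adjusted p = 0.458). CNN3, an actin-binding calponin, fell from 8.41, 8.34 and 8.16 to 5.63, 5.91 and 5.51 (−2.62, adjusted p = 1.7e-07). Unlike JCHAIN, CNN3 was also low in TKO1 (mean 4.51) and TKO2 (4.55). Over the 57 genes, the TKO1 mean was more than 1 unit below WT for 15, within 1 unit for 33 and above it for 9, and the TKO2 mean for 18, 27 and 12. All 6 TKO arrays lay below every WT array for 23 of the 57. The remaining members, with differences from −2.58 to −1.05, were CCDC106, TCEA3, LAX1, COL22A1, HIVEP3, HGF, ZSCAN18, SLFN11, MYO1G, TMOD1, ARHGEF6, HOMER3, DACH1, PRKCB, TLE4, CPEB1, SNORD34, TMTC4, LEFTY2, YIF1B, ANKRD29, CAMTA1, ENPP6, CORO1A, RBM26, TBX2, CTSH, SOX7, AP1S2, EBPL, PPP1R16B, RNASEH2B, OSR2, TRMT11, IGF2BP3, ZNF667 and GLDC.

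CDCA7, a cofactor of the chromatin remodeller HELLS in DNA methylation, gave 10.21, 10.43 and 10.32 in WT and 7.71, 8.66 and 7.56 in NTKO. All 3 arrays were low, replicate 2 least so (−2.34, SE 0.22, adjusted p = 1.41e-05), and the TKO means were 10.42 and 10.28. HELLS gave 7.99, 7.80 and 7.81 against 7.20, 7.80 and 7.48 and did not pass the test (−0.37, adjusted p = 0.237). Of 13 tested genes of the DNA methylation machinery CDCA7 was the only one called (7.69%, where 4.43% of all genes were lower). The count was 1 lower without any 1 of the other arrays but 2 higher and 4 lower without NTKO replicate 2. Of 29 Polycomb genes only KDM2B was called (−0.62, adjusted p = 0.0477), 3.45% of the list. The Polycomb count was 0 without any WT array or NTKO replicate 1 or 3. Without NTKO replicate 2 it was 6 higher and 5 lower of 29, in a fit that called 1849 of all 10485 genes higher and 1863 lower. EZH2, the H3K27 methyltransferase, differed by 0.07 (adjusted p = 0.884).

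MHC class II genes were lower together. Of 17 listed genes 9 were tested and 8 passed the test as lower, where 4.43% of all genes did, and the list's median was −1.56, −1.90 and −1.58 on the 3 arrays against −0.02, 0.00 and −0.01 over all genes. HLA-DRA, the invariant alpha chain of HLA-DR, lay at 12.08, 11.83 and 11.79 in WT and 10.34, 10.56 and 10.33 in NTKO (−1.49, adjusted p = 1.87e-06). HLA-DPA1, the alpha chain of HLA-DP, lay at 6.97, 6.88 and 7.30 in WT and was undetected in NTKO, at least 4.07-fold lower (adjusted p = 1.7e-07). HLA-DMB, 1 of the chaperone chains that load peptide, fell from 8.10, 7.87 and 7.88 to 5.94, 5.91 and 5.61 (−2.13, adjusted p = 3.21e-06). In these genes replicate 2 lay with replicates 1 and 3, and no NTKO array overlapped WT.

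HLA-DMA, the other chaperone chain, differed by −1.61 (adjusted p = 7.74e-05). CD74, the invariant chain that escorts class II molecules, moved least of the 8 lower genes, from 12.06, 12.38 and 12.25 to 11.64, 11.44 and 11.63 (−0.66, adjusted p = 0.00642). HLA-DRB4, HLA-DRB6 and HLA-DRB3 differed by −2.75, −2.44 and −0.73, but DRB genes share much of their sequence, so which of them each probe reads is uncertain. A second HLA-DRB4 probe differed by 0.05 (adjusted p = 0.896). HLA-DQB1 was the tested gene that did not pass (7.50, 7.77 and 7.90 against 8.28, 7.36 and 8.24, adjusted p = 0.542), and CIITA was not tested because it did not pass the detection filter. The TKO clones stood on the other side of the shared WT arrays, with list medians from 1.93 to 2.68 above WT and HLA-DRA means of 13.5 and 13.4. The count of 8 was 7 when any WT array or NTKO replicate 1 or 3 was left out.

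**Figure D3:**
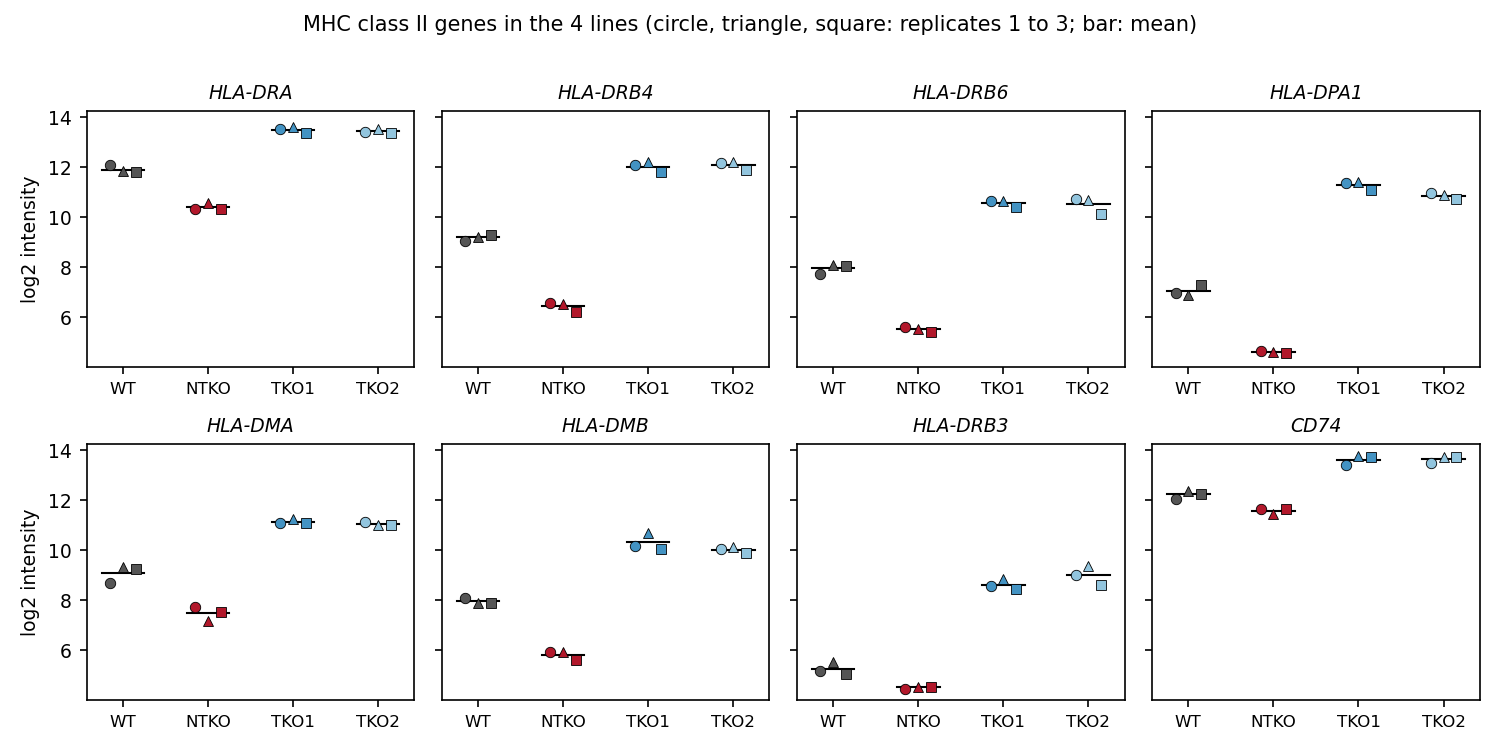
Log2 intensity of 8 MHC class II pathway genes in WT, NTKO, TKO1 and TKO2, with 1 point per array and a bar at the mean of 3 arrays. For HLA-DRA the NTKO arrays lie between 10.33 and 10.56, below WT (11.79 to 12.08), and the TKO clones lie above it.

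Plasma cell genes did not move as a group, and 22 tested members gave 2 higher and 4 lower calls (9.09% and 18.2%, against 3.31% and 4.43% of all genes). CD38, the NAD-consuming ectoenzyme of the plasma cell surface, rose from 5.84, 5.48 and 5.72 to 7.45, 7.60 and 7.51 (1.84, adjusted p = 5.91e-06), with TKO means of 4.61 and 4.53. IRF4, the transcription factor on which myeloma cells depend, rose from 10.17, 9.73 and 9.73 to 10.47, 10.33 and 10.58 (0.58, adjusted p = 0.0295). Besides JCHAIN and TNFRSF13B, the coactivator POU2AF1 (−0.64, adjusted p = 0.0434) and the chemokine receptor CXCR4 (−0.65, adjusted p = 0.0295) were lower. SDC1, the marker syndecan-1, gave 7.72, 7.51 and 7.72 against 7.40, 7.71 and 7.26 and did not pass the test (adjusted p = 0.583). Without any WT array or NTKO replicate 1 or 3 the counts were 1 to 2 higher and 2 to 3 lower, and without NTKO replicate 2 they were 5 and 5.

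The strongest rises of the set that moved on NTKO replicates 1 and 3 only included listed ATF4 and CHOP stress genes. What set them off was not tested. Because replicate 2 lay at WT, the spread within NTKO was wide, and 97 of the 362 higher and 60 of the 196 lower genes passed the test. INHBE, an inhibin beta subunit induced by stress, gave the extreme values, 5.96, 6.26 and 6.0 in WT and 12, 5.26 and 11.71 in NTKO. Replicate 2 was below all WT arrays while the other NTKO arrays were far above them, and the mean difference of 3.58 (SE 1.45) did not pass the test (adjusted p = 0.163). The TKO clone means of INHBE were 5.58 and 7.33.

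Transcription factors of the ATF4 and CHOP response came next. ATF3 lay at 6.32, 6.08 and 6.05 in WT and at 10.21, 6.31 and 10.39 in NTKO (adjusted p = 0.0578). DDIT3, which encodes CHOP, lay at 8.11, 7.87 and 7.98 against 11.63, 7.58 and 11.36 (adjusted p = 0.131). CEBPB, a C/EBP partner, lay at 10.22, 10.60 and 10.57 against 12.83, 10.54 and 12.81 (adjusted p = 0.0632). In each of these, replicates 1 and 3 were above all WT arrays and replicate 2 was within 0.5 of the WT mean. ATF4, which is controlled mainly in translation, moved less, at 12.74, 12.82 and 12.86 in WT and 13.42, 12.97 and 13.51 in NTKO. Its difference of 0.49 passed the test (adjusted p = 0.0341), but 2 further ATF4 probes gave 0.05 and 0.68, neither of which passed.

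Targets that act on signalling and translation showed the same split. TRIB3, a pseudokinase that restrains AKT, gave 8.31, 8.30 and 8.23 in WT and 11.54, 8.44 and 11.49 in NTKO. DDIT4, an inhibitor of mTORC1, gave 9.24, 9.25 and 9.33 against 12.93, 8.72 and 12.86, and SESN2, another mTORC1 regulator, gave 5.01, 4.71 and 4.88 against 8.38, 4.68 and 8.26. SESN2 was detected on only 1 WT array and not on NTKO replicate 2. None of TRIB3, DDIT4 and SESN2 passed the test over all arrays (adjusted p = 0.0538, 0.154 and 0.0925). The secreted glycoprotein STC2 did, at 6.15, 5.99 and 6.08 against 9.36, 6.3 and 9.35 (2.26, adjusted p = 0.0442), as did the stress cytokine GDF15, at 4.47, 4.52 and 4.51 against 7.09, 4.61 and 6.89 (adjusted p = 0.0477). GDF15 was undetected on all WT arrays.

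Over the whole list of 23 tested ATF4 and CHOP stress regulators, 6 were called higher and 0 lower, against 3.31% higher over all genes. The list's median was 2.37, 0.05 and 2.34 on replicates 1, 2 and 3, and 16 members fell in the set of replicates 1 and 3 only. Without replicate 2 the call count was 20, and without any of the other 5 WT or NTKO arrays it was 0, an array-by-array count chosen after seeing the data. CEBPG, NUPR1 and FGF21 differed by 0.19, −0.18 and 0.37 and did not pass.

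Enzymes of serine, one-carbon and asparagine synthesis had medians of 1.64, −0.17 and 1.65, and 0 of 16 passed the test (13 higher and 2 lower without replicate 2). PHGDH, the first enzyme of serine synthesis, lay at 10.08, 10.33 and 10.33 in WT and 12.64, 9.63 and 12.64 in NTKO (adjusted p = 0.203). ASNS lay at 9.85, 10.06 and 10.33 against 12.61, 9.83 and 12.76 (adjusted p = 0.111). CBS, which makes cystathionine from serine, lay at 8.66, 8.96 and 8.85 against 11.55, 8.03 and 11.53 (adjusted p = 0.21). In PHGDH and CBS replicate 2 was below every WT array, so that NTKO arrays lay on both sides of WT. MTHFD1, the cytosolic folate enzyme, ran the other way at 7.02, 7.78 and 6.98 against 7.04, 7.17 and 7.09, with no call.

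Transporters followed in part. Of 16 tested, SLC38A1 (0.73, adjusted p = 0.0266) and SLC1A4 (1.52, adjusted p = 0.00993) were called higher and SLC36A4 lower (−0.75, adjusted p = 0.0437). The transporter calls were 12.5% higher and 6.25% lower, against 3.31% and 4.43% of all genes. Without replicate 2 the counts were 9 and 3, and without any other array 0 to 1 and 0. SLC1A4, a neutral amino acid carrier, lay at 5.58, 5.44 and 5.32 in WT and 7.32, 6.19 and 7.38 in NTKO, so replicate 2 moved part of the way. SLC7A5, the large neutral amino acid carrier, was even across NTKO, at 11.01, 11.18 and 11.16 against 10.08, 10.45 and 10.54, and fell just short of the threshold (0.76, adjusted p = 0.0532). SLC6A9, the glycine carrier, lay at 9.21, 4.83 and 9.13 against 5.2, 5.43 and 5.65 (adjusted p = 0.141), and was undetected on NTKO replicate 2.

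The tRNA synthetases were listed by compartment. Of 20 tested cytosolic members 6 were higher (30%, against 3.31% of all genes), with medians of 0.84, 0.15 and 0.90. Without replicate 2 the counts were 14 higher and 3 lower. Of 15 mitochondrial members 0 passed the test, with medians of −0.30, 0.05 and −0.43 (5 lower without replicate 2). WARS1, the tryptophanyl-tRNA synthetase, rose from 8.82, 9.13 and 8.93 to 11.03, 9.39 and 11.13 (1.56, adjusted p = 0.0114), and GARS1, for glycine, rose by 1.19 (adjusted p = 0.0139). The count of 6 ranged from 0 to 2 when a WT array or NTKO replicate 1 or 3 was left out. AARS1, whose promoter is shown above, lay at 10.50, 10.64 and 10.67 against 12.42, 10.53 and 12.59 (adjusted p = 0.11), and mitochondrial MARS2 lay at 8.47, 8.16 and 8.25 against 6.68, 8.78 and 6.61 (adjusted p = 0.184).

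**Figure D4:**
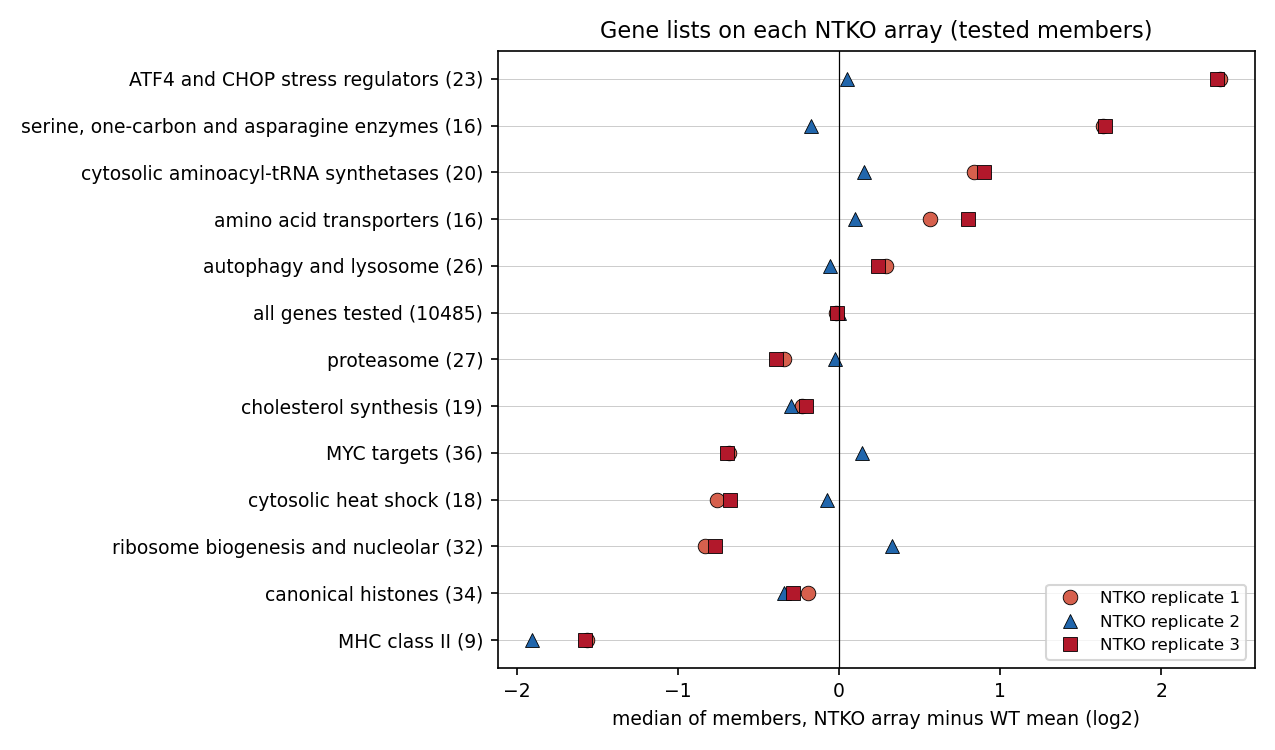
Median log2 difference from the WT mean over the tested members of 13 gene lists, with 1 symbol per NTKO array. The stress regulators lie at 2.37 and 2.34 on replicates 1 and 3 and at 0.05 on replicate 2, whereas the MHC class II medians lie close together (−1.56, −1.90 and −1.58).

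Ribosome production genes were lower on the same pair of arrays. The list of 32 tested genes had medians of −0.83, 0.33 and −0.77, and 11 members fell in the set of replicates 1 and 3 only. As lower, 1 passed the test (3.12%, against 4.43% of all genes). The count was 27 without replicate 2, and 0 to 1 without any other array. RRP9, a component of the U3 ribonucleoprotein, lay at 6.69, 6.88 and 6.80 in WT and 5.14, 7.43 and 5.06 in NTKO (adjusted p = 0.252). NOP56, a core protein of box C/D particles, lay at 11.84, 11.83 and 11.86 against 10.40, 11.87 and 10.42 (adjusted p = 0.057). For RRP9 replicate 2 was above all WT arrays, and for NOP56 it was also above them but by less than 0.05. FBL, the methyltransferase fibrillarin, was the member called, at 11.60, 11.62 and 11.63 against 11, 11.14 and 11.05 (−0.55, adjusted p = 0.0108), and it was low on all 3 arrays.

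MYC itself gave 12.13, 12.16 and 12.25 in WT and 12.15, 12.32 and 12.21 in NTKO (difference 0.05, adjusted p = 0.85). Its 36 tested listed targets had medians of −0.68, 0.14 and −0.70. Of these 1 was called higher (2.78%, against 3.31% of all genes) and 2 lower (5.56%, against 4.43%). Without replicate 2, 26 were lower, and without any other array 0 to 1 were called in each direction. IMPDH2, the guanine nucleotide enzyme, was the one higher, at 10.49, 10.53 and 10.51 against 9.94, 9.76 and 10.00 (0.61, adjusted p = 0.00862). TFRC, the transferrin receptor, was among the strongest falls of the set, at 11, 10.97 and 10.89 in WT and 8.88, 10.92 and 8.86 in NTKO (adjusted p = 0.0581).

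Cytosolic heat shock genes had medians of −0.76, −0.07 and −0.67, and 3 of 18 were called lower (16.7%, against 4.43% of all genes). The heat shock count was 12 without replicate 2, and 0 to 1 without any other array. HSPH1, an HSP110 chaperone, fell from 11.21, 11.16 and 11.22 to 9.05, 11.07 and 9.26 (−1.40, adjusted p = 0.0444). Proteasome genes gave 3 lower calls of 27 (11.1%, against 4.43%), among them the ATPase subunit PSMC4 (−0.84, adjusted p = 0.0119) and the lid subunit PSMD8 (−1.0, adjusted p = 0.0209). The proteasome count was 15 without replicate 2, and 0 to 1 without any other array. Other strong falls on replicates 1 and 3 were NT5DC2 (−1.48, adjusted p = 0.0163), CHRNA1 (−1.27, adjusted p = 0.0432), BRI3BP (−1.38, adjusted p = 0.0356) and BCL11B, a lymphoid transcription factor (−1.36, adjusted p = 0.0105). A further CHRNA1 probe moved part of the way on replicate 2 (−1.69, −0.56 and −1.75 on the NTKO arrays). Another was lower evenly on all 3 (−0.76, −0.69 and −0.83).

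The TKO clones lay near WT for most genes of these sets. The 362 higher genes had medians from −0.16 to 0.13 on the 6 TKO arrays, and 326 or more of them had a clone mean within 1 unit of WT. The 196 lower genes had medians from −0.13 to 0.05, with 177 within 1 unit in each clone. All 6 TKO arrays lay beyond WT on the same side as NTKO for 49 of the 362 and 44 of the 196. By list, cytosolic tRNA synthetases had TKO medians from 0.14 to 0.44. Stress regulators had −0.24 to 0.10 in TKO1 and 0.27 to 0.43 in TKO2. Detection set a limit here, since 65 of the 362 were undetected on NTKO replicate 2 and 27 on all WT arrays, and 292 were detected on all 6 arrays. Other probes of the same genes mostly bore the same sign on the arrays that define the set, for 120 of 127 probes of the higher genes and 62 of 66 of the lower genes. For genes that moved on all 3 arrays this held for 5 of 5 and 18 of 19 probes. Fewer of these other probes met the full rule of their gene's set. They were 65 of 127 and 26 of 66 for replicates 1 and 3 only, and 1 of 5 and 5 of 19 for all 3 arrays.

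Endoplasmic reticulum folding genes included members that were lower on all NTKO arrays. Of 31 tested, 10 were called lower (32.3%, against 4.43% of all genes) and 0 higher, although the list's median was only −0.04, −0.26 and −0.03. HSPA5, the chaperone BiP, fell from 8.39, 8.53 and 8.30 to 6.90, 7.61 and 6.66 (−1.35, adjusted p = 0.00119). SDF2L1 and MANF, both induced by unfolded protein, fell by 1.09 (adjusted p = 0.00809) and 1.05 (adjusted p = 0.0031), with replicate 2 part of the way down. DNAJB9, a BiP cochaperone, lay higher on replicates 1 and 3, at 10.49, 8.04 and 10.53 against 8.31, 8.27 and 8.25 (adjusted p = 0.0995). The count of 10 was 2 without WT replicate 2 or NTKO replicate 3, 4 without NTKO replicate 1, 5 without WT replicate 3 and 7 without WT replicate 1, and without NTKO replicate 2 it was 11, with 8 higher.

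Replicate 2 alone moved for 33 genes upward (0.315% of those tested) and 57 downward (0.544%). Of these 0 were called, which the rule makes likely because it asks replicates 1 and 3 to be quiet. Of the 57 lower genes 20 were undetected on replicate 2. All 6 TKO arrays lay beyond WT on the same side as replicate 2 for 7 of the 33 and 22 of the 57. GBP1, an interferon-induced GTPase, gave 4.87, 6.64 and 4.99 in NTKO against 4.99, 5.0 and 5.25 in WT. JAM2, a junctional adhesion molecule, gave 7.21, 5.46 and 7.03 against 7.57, 7.12 and 7.37. In TKO1 and TKO2 it was undetected (means 4.69 and 4.74). HSD17B14, a steroid dehydrogenase, gave 8.15, 5.15 and 8.03 against 7.03, 7.37 and 7.26, with replicates 1 and 3 above WT and replicate 2 below. The largest rise belonged to SNAR-A1, a small RNA of a multicopy family whose copies a probe cannot tell apart, and its WT values of 8.54, 9.86 and 9.59 were themselves spread.

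Genes lower in NTKO were unevenly placed along the chromosomes. On chromosome 13, 43 of 188 tested genes were called lower (22.9%) and 2 higher, where 4.43% of all genes were lower, and 9 of the 57 genes lower on all 3 arrays lay there. Chromosome 19 had 68 lower of 679 (10%). In windows of 31 neighbouring tested genes, the lowest median was that from TBC1D4 to TPP2 on chromosome 13, at −0.94, with 21 of 31 called lower. The medians there were −0.88, −0.80 and −0.95 on the 3 NTKO arrays, all 3 low and replicate 2 least so, and 25 of the 31 genes lay below the WT range on all 3. The TKO medians in the same window were −0.07 and −0.12.

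Within it, TPP2, a large cytosolic peptidase, fell from 6.56, 6.39 and 6.41 to 4.68, 4.95 and 4.80, and ABCC4, a drug and nucleotide exporter, from 7.92, 7.81 and 7.94 to 6.13, 6.71 and 6.11. The NTKO values of TPP2 lay below the lowest signal detected on each array (4.98, 5.12 and 4.97), so its fall is a lower bound. MYCBP2, a ubiquitin ligase, fell from 8.68, 8.42 and 8.56 to 7.10, 7.87 and 7.33. MBNL2, a splicing regulator, was an exception at 7.03, 4.76 and 6.80 against 5.51, 5.15 and 4.96, and was not called. The next lowest window also lay on chromosome 13, from CAB39L to KLF12 (−0.60, 14 of 31 lower), where SUGT1, a cochaperone of HSP90, fell from 7.96, 7.99 and 7.99 to 6.49, 6.77 and 6.35. The third window, on chromosome 19 from ZNF486 to ZNF792, had a median of −0.54 (−0.54, −0.34 and −0.62 on the arrays, 10 of 31 lower). The arrays measured RNA and not DNA.

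The highest windows were smaller in size. On chromosome 12 from PRIM1 to CTDSP2 the median was 0.35, with 0.35, −0.04 and 0.35 on the arrays, and this window holds INHBE, DDIT3, MARS1 and SHMT2 of the ATF4 response. On chromosome 14 from GSTZ1 to GOLGA5 it was 0.33, with all 3 arrays above 0 (0.31, 0.27 and 0.47) and 5 of 31 genes higher. The highest was 0.36 on chromosome 9 from ANKRD20A3P to QNG1, with 0.05 on replicate 2.

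**Figure D5:**
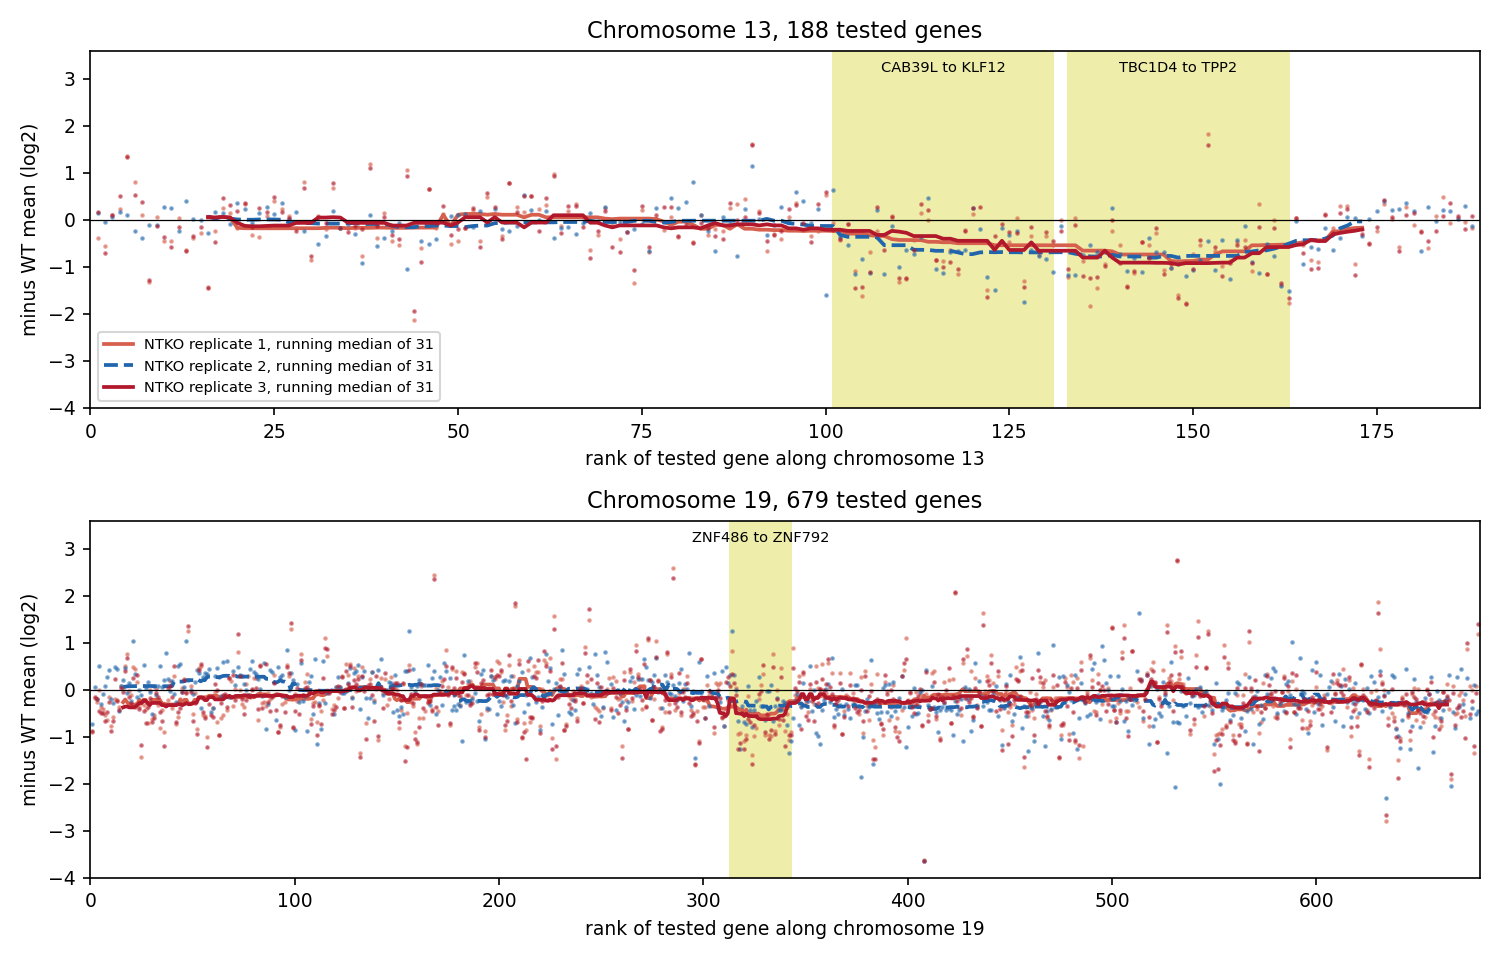
Running median, over 31 neighbouring tested genes, of the log2 difference from the WT mean on chromosomes 13 and 19, with 1 line per NTKO array and genes in reference order along the x axis. Shading marks the 3 windows with the lowest medians, and in TBC1D4 to TPP2 all 3 arrays lie between −0.95 and −0.80.

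Signalling lists held changes in both directions. In the Notch list of 18 tested genes 3 were higher and 3 lower (16.7% each, against 3.31% and 4.43% of all genes). Next to the loss of the ligand DLL3, the repressor HEY2 rose from 5.69, 5.90 and 5.37 to 8.17, 6.91 and 8.12 (2.08, adjusted p = 0.000298) while its relative HEY1 fell from 6.64, 6.39 and 6.18 to 5.52, 5.14 and 5.10 (−1.15, adjusted p = 0.00212). HES6, an antagonist of HES1, fell by 1.13 (adjusted p = 0.0116), mainly on replicates 1 and 3. HEYL (0.66, adjusted p = 0.0445) and the glycosyltransferase RFNG (0.78, adjusted p = 0.0411) were higher. Without any 1 of the arrays other than NTKO replicate 2 the counts were 1 higher and 2 to 3 lower, and without that one they were 4 and 6.

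In the MAP kinase output list of 16 tested genes 2 were higher and 3 lower (12.5% and 18.8%, against 3.31% and 4.43% of all genes). The counts were 2 and 2 to 3 without any array other than NTKO replicate 2, and 4 and 8 without that one. FOS fell from 6.90, 6.75 and 6.3 to 5.37, 4.82 and 5.26 (−1.50, adjusted p = 0.000182), and the ERK phosphatases DUSP4 (−0.93, adjusted p = 0.00149) and DUSP6 (−0.83, adjusted p = 0.0203) were lower. DUSP5, a nuclear ERK phosphatase, was higher (1.14, adjusted p = 0.00646), as was the interleukin 1 receptor subunit IL1RAP (1.42, adjusted p = 0.0029). The list's medians in the TKO clones were −0.77 to −0.40 relative to WT. FOS (TKO1 and TKO2 means 4.61 and 4.65), DUSP4 (4.82 and 4.72) and IL1RAP (4.77 and 4.57) were undetected there. DUSP5 (8.08 and 8.76) was also below WT in TKO. Of 17 NF-kB pathway genes 2 were higher (11.8%) and 4 lower (23.5%), the lower ones being the inhibitors NFKBIB, NFKBIE and TNFAIP3 and the chemokine CCL5 (−1.03, adjusted p = 0.0112). The lower count was 0 without WT replicate 2 or 3, 1 without NTKO replicate 1 or 3, 2 without WT replicate 1 and 4 without NTKO replicate 2, while the higher count was 1 to 2 without any array other than NTKO replicate 2 and 4 without that one.

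Among cell cycle regulators, the CDK inhibitors CDKN2D (1.73, adjusted p = 0.019) and CDKN2B (1.53, adjusted p = 0.00245) were higher and cyclin E1 (CCNE1) lower (−1.01, adjusted p = 0.0031) of 16 tested (1 higher and 1 lower without any array other than NTKO replicate 2). The calls were 12.5% higher and 6.25% lower, against 3.31% and 4.43% of all genes. CDKN2D was a gene of replicates 1 and 3, at 5.70, 6.07 and 5.94 in WT and 8.35, 6.3 and 8.25 in NTKO. BCL2, the apoptosis inhibitor, rose by 0.95 (adjusted p = 0.0149) as the only call of 18 family members (5.56%), at 11.09, 10.20 and 11.07 against 10.08, 9.63 and 9.79. Its other kept probes differed by 0.74 (adjusted p = 0.082) and 0.28 (adjusted p = 0.361), and neither passed. The family count was 0 without WT replicate 2 or 3 or NTKO replicate 1 or 3, and 7 higher and 4 lower without NTKO replicate 2. The p53 targets gave 0 higher calls of 20 (10 without replicate 2), and TNFRSF10B, a TRAIL receptor also known as a CHOP target, lay at 10.49, 7.56 and 10.16 against 7.68, 7.54 and 7.63 (adjusted p = 0.0707).

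Some replication-dependent and linker histones were lower on all 3 arrays. Of 34 tested histone genes 6 were lower (17.6%, against 4.43% of all genes) and 1 higher, with medians of −0.19, −0.34 and −0.29, and near-identical copies make the assignment of single probes uncertain. H2BC12 fell from 12.70, 12.82 and 12.78 to 11.93, 11.94 and 12.04 (−0.80, adjusted p = 0.000152), and the linker histone H1-2 fell by 0.88 (adjusted p = 0.00132). H1-10 was the one higher (0.93, adjusted p = 0.0135). The lower count was 3 without NTKO replicate 3, 4 to 5 without NTKO replicate 1 or a WT array, and 6 without NTKO replicate 2. In cholesterol synthesis, 3 of 19 genes were lower (15.8%, against 4.43% of all genes) and 0 higher. LSS, lanosterol synthase, fell from 10.13, 10.17 and 9.92 to 8.88, 8.79 and 8.65 (−1.30, adjusted p = 0.000628), SQLE by 1.09 and PMVK by 0.63. The lower count was 2 without any array other than NTKO replicate 2 and 5 without that one, with 1 higher. Further LSS probes differed by −0.42 and −0.37 and did not pass.

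Genes that the study lists as bound by EZH2 were set beside the background, although those lists were drawn from NTKO and TKO cells of the same study. Of 428 tested genes bound in NTKO only, 17 were higher (3.97%) and 36 lower (8.41%), against 3.31% and 4.43% of all genes. Of 325 bound in both, 30 were higher (9.23%) and 28 lower (8.62%). Of 125 bound in TKO only, 10 were higher (8%) and 14 lower (11.2%). Their medians were 0.01, 0.07 and 0.02. Of the 22 genes higher on all 3 arrays 7 were bound in both, 2 in NTKO only and 1 in TKO only. Of the 57 lower on all 3 arrays 12 were bound in NTKO only, 2 in both and 1 in TKO only. Among all 10485 tested genes 428 were bound in NTKO only, 325 in both and 125 in TKO only.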

How the data were processed

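Total RNA of 12 samples of KMS11 and its derivatives (3 arrays for each of 4 lines) was labelled and hybridised to Illumina HumanWG-6 bead arrays. Per the labels the authors exported the arrays with GenomeStudio (version not given). The deposited table holds 1 linear intensity per probe and array, not normalized between arrays and partly below 0 after background subtraction, beside a detection p-value that the authors' software computed from control beads. Another deposited table holds intensities that the authors normalized over the 12 arrays and served as an alternative. No source used here gives slides or scan dates, so no batch was fitted.

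Intensities were normalized with neqc (normexp on the detection p-values, offset 16, quantile) and taken to log2, since the deposited intensity is linear. Of 48803 probes, 27578 had 1 gene in the platform annotation, 13 several and 21212 none, and 27541 of the named ones matched RefSeq. Probes with a detection p under 0.05 on at least 2 of 3 WT or NTKO arrays were kept (17033), and 1 probe a gene, the one with the highest mean, gave 10485 genes. Of these, 2666 had several kept probes.

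NTKO was compared with WT by limma 3.58.1 in R 4.3.3 (trend, robust, two-sided, Benjamini-Hochberg over all genes, threshold 0.05) in a model of 4 line means on 12 arrays. The scripts were tested on simulated data. The number of arrays limits the precision. Same-numbered WT and NTKO arrays deviated with correlations of 0.188, 0.0803 and −0.0431, so the numbers were not taken as pairs here, although same-numbered TKO1 and TKO2 arrays gave 0.495, 0.106 and 0.486. For genes undetected in 1 group, a fold is a lower bound against the lowest signal detected on each array.

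Named genes were NSD2 and FGFR3, the 10 strongest members in each direction of the sets moved on all 3 arrays and on replicates 1 and 3 only, the 5 strongest of replicate 2 only, up to 4 members of each list, and pathway heads. Other list members, genes at the thresholds and genes of the chromosome windows were named after their values were seen. The members and lists were chosen with earlier results of these data known. Of the list entries 1020 matched a current, 3 an older and 2 no symbol, and of the study's EZH2 lists 1663, 197 and 55 matched a current, an older or no symbol. Alternatives were other background correction, the authors' values, loess or median centring, other detection filters, probe averaging, the 6 arrays alone, a replicate block, array weights, no trend, the methods' two-sample test, arrays left out in turn and other limits for a moved gene.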

Additional observations from a re-analysis of the deposited data

How the results depend on the processing

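The 812 calls were 628 to 861 under the other background correction, scaling, filter, probe and moderation settings, and other scalings moved the median of all genes by at most 0.0236 on the log2 scale. Fitted on the 6 WT and NTKO arrays alone, 195 genes were called (55 higher, 140 lower). Array weights gave 5685 (2799 and 2886). The two-sample test of the methods gave 68 genes after adjustment (16 and 52) and 208 at its own threshold. With the replicate block 1012 genes were called, 795 of them among the 812, and the WT and NTKO arrays share only a number, while same-numbered TKO1 and TKO2 arrays correlated at 0.495, 0.106 and 0.486. Leaving out 1 array gave 278 to 3712 calls (84 to 1849 higher, 194 to 1863 lower), the highest without NTKO replicate 2. The sets moved on all 3 arrays held 37 higher and 109 lower genes without background correction and with the authors' values, and 34 lower genes when detection on all 6 arrays was asked. With 1.5-fold as the limit they held 100 and 208, and the sets of replicates 1 and 3 only 844 and 686. With 3-fold these were 6 and 19, and 114 and 27. Leaving out a WT array gave 21 to 25, 57 to 63, 342 to 389 and 192 to 211. HSD17B14 turned higher with array weights (0.72), and with 1 array left out it ranged from −0.63 without NTKO replicate 1 to 0.87 without NTKO replicate 2. List medians moved for the reference genes (0.02 with loess, −0.04 with median centring) and, with median centring, for G1 regulators (−0.10), glycolysis (−0.03) and the respiratory chain (−0.16). The lowest window of 15 genes had a median of −0.97. The cause of these differences was not tested. Signal over background limits the genes undetected on NTKO replicate 2, for which a quiet value is only an upper limit.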

Other observations

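Lists with few calls covered further cell functions. Over all genes 3.31% were called higher and 4.43% lower. Higher calls made up 5.88% of the replication list, 2.86% of mitosis, 4.55% of interferon and 7.69% of autophagy genes. Lower calls made up 7.41% of adhesion, 4.55% of interferon and 6.67% of NRF2 genes. Of 34 DNA replication genes 2 were higher and 0 lower, the primase subunit PRIM1 (0.96, adjusted p = 0.00956) and the GINS subunit GINS2, at 10.00, 10.11 and 9.95 in NTKO against 8.90, 9.24 and 9.24 in WT (0.89, adjusted p = 0.0126). The count of 2 was 1 without WT replicate 1 or NTKO replicate 3, and without NTKO replicate 2 it was 5 higher and 5 lower. Of 35 mitosis genes the kinesin KIF2C was called, at 10.20, 8.66 and 10.09 against 8.53, 8.59 and 8.53 (1.10, adjusted p = 0.0291), and without NTKO replicate 2 the count was 9 higher, and without any other array 0. Of 27 adhesion genes 2 were lower, among them the integrin ITGAL, at 5.50, 5.70 and 5.60 in WT and undetected in NTKO, at least 1.49-fold lower (adjusted p = 0.00387). The adhesion count was 1 lower without any array other than NTKO replicate 2, and 5 higher and 4 lower without that one.

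Of 22 interferon-stimulated genes IFIT3 was higher, undetected in WT and at 5.26, 6.06 and 5.71 in NTKO (at least 1.59-fold, adjusted p = 0.0259), and ISG15 lower, at 7.19, 7.76 and 7.14 against 8.09, 8.20 and 8.24 (−0.81, adjusted p = 0.0419). Both calls were lost without any WT array or NTKO replicate 3, 1 gene was higher and 0 lower without NTKO replicate 1, and 5 were higher and 3 lower without NTKO replicate 2. Of 26 autophagy and lysosome genes the receptor SQSTM1 (0.70, adjusted p = 0.0395) and MAP1LC3B (0.91, adjusted p = 0.025) were higher (0 to 1 gene without any array other than NTKO replicate 2, and 7 higher and 1 lower without that one), MAP1LC3B mainly on replicates 1 and 3 (10.67 and 10.80 against 9.64 on replicate 2). Of 15 NRF2 response genes the peroxiredoxin PRDX1 was lower, at 11.94, 12.88 and 11.87 against 13.16, 13.12 and 13.13 (−0.90, adjusted p = 0.0119). The NRF2 count was 0 without NTKO replicate 1 or 3, and 1 higher and 5 lower without NTKO replicate 2.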
